A study of Mus musculus with 12 samples.

Results

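Zscan4c, Zscan4d, Zscan4f, Tcstv1 and Tcstv3, genes that mark a rare 2-cell-like state of mouse embryonic stem (ES) cells, were followed through an RNA sequencing study of medium, a GSK3 knockout and the BET inhibitor JQ1. They were taken by gene identifier, with the version removed, from the tables of all 12 libraries through GENCODE mouse release M 21, and are 5 of the 52550 genes listed there. Cells whose label names no knockout are called unmodified and were kept in serum with the cytokine LIF (serum/LIF) or in serum-free 2iL medium, which contains LIF and inhibitors of the kinases MEK and GSK3. Cells labelled GSK3 knockout were kept in serum/LIF. Each of these 3 settings received 100 nM JQ1 or its solvent DMSO, was harvested after 60 h and gave 2 libraries per group, so that every group shares the ES cell origin and LIF. JQ1 is a small molecule that displaces BET bromodomain proteins from acetylated histones. The serum/LIF cultures had come from mouse embryonic fibroblast feeders and were split onto gelatin before the experiment, whereas the 2iL cultures were kept on gelatin, so effects of medium and of feeder history cannot be told apart. The labels do not say whether the knockout is a single clone, nor that the libraries of a group are separate cultures, and the p-values then measure only the spread between these libraries.

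Zscan4 genes encode proteins with a SCAN domain and zinc fingers and are switched on in the mouse embryo when its own genome is first transcribed. In ES cell cultures they appear in bursts in a small fraction of cells, where they are known for telomere lengthening by recombination and for genome stability. The Tcstv genes belong to another gene cluster switched on at the same embryonic stage and in the same rare cells. In bulk libraries such as these, fewer cells in the 2-cell-like state and less RNA per such cell cannot be told apart.

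The Zscan4 genes lie within 820 kb of chromosome 7 (GRCm38), in a cluster of 9 annotated rows between positions 10794242 and 11614112. Zscan4c (ENSMUSG00000054272.6) occupies chr7:11005745-11010547 on the plus strand, Zscan4d (ENSMUSG00000090714.10) chr7:11161374-11166159 on the minus strand, and Zscan4f (ENSMUSG00000070828.10) chr7:11397915-11402318 on the plus strand. Tcstv1 (ENSMUSG00000096284.2) lies at chr13:119893388-119894785 on the minus strand and Tcstv3 (ENSMUSG00000095821.2) at chr13:120316878-120318178 on the plus strand. GENCODE lists all 5 as protein-coding genes. RefSeq promoter sequences (GRCm38.p6) matched 3 of the 5 genes. The 250 bases before the RefSeq start of each Zscan4 gene are shown because these copies were high and low in the same groups. They read 5′ to 3′ along the gene's strand, with the TATA motif TATAAA in capitals.
Zscan4c, chr7:11005495-11005744, plus strand: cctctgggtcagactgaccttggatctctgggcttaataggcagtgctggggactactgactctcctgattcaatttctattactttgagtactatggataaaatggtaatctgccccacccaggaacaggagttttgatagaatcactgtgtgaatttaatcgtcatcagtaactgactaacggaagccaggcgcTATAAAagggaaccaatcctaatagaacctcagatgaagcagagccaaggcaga
Zscan4d, chr7:11166149-11166398, minus strand: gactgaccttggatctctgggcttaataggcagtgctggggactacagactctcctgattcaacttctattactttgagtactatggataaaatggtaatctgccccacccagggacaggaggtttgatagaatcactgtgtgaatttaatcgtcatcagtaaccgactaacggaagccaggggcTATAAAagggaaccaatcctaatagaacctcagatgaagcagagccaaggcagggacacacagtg
Zscan4f, chr7:11397665-11397914, plus strand: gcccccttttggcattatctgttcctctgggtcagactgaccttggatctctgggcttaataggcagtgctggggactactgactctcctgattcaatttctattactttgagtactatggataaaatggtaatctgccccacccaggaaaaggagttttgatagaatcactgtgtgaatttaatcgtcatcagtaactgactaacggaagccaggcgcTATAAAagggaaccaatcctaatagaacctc

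The windows were near copies of each other, with 99.56% identity between Zscan4c and Zscan4f, 97.07% between Zscan4c and Zscan4d and 96.76% between Zscan4d and Zscan4f over the aligned bases. Each held TATAAA once, on either strand, and 12.4% of 32851 RefSeq windows of the same length held it. Its first base lay 54 bases before the annotated start of Zscan4c, 65 before that of Zscan4d and 31 before that of Zscan4f. None of the windows held the DUX motif (in 0.0304% of windows), the T-box letters TCACACC (3.33%) or the E-box letters CACGTG (6.02%) on either strand. A match or its absence describes these letters in these windows only.

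The transcripts were as alike as the promoters, which limits how firmly a read can be given to 1 copy. The longest transcripts of Zscan4c and Zscan4f had 99.61% identity, those of Zscan4c and Zscan4d 97.49%, and those of Zscan4d and Zscan4f 97.79%. Of the 150-base windows of Zscan4d, 87% occurred in no other annotated gene, against 38.98% for Zscan4c and 13.81% for the longer Zscan4f transcript. The longest Tcstv1 and Tcstv3 transcripts had 90.17% identity, and all of their windows were unique to their gene. The split between Zscan4 copies is therefore uncertain, and the sum of Zscan4c, Zscan4d and Zscan4f, called the Zscan4 sum, is the measure to read first.

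Libraries held 17869865 to 48723436 expected counts (read counts estimated per gene, which need not be whole), the deepest being the first unmodified serum/LIF DMSO library and the next holding 29882439. Levels below are CPM, read counts scaled to library size with TMM factors, and 3 counts in a library correspond to 0.0611 to 0.171 CPM. As a check of the knockout label, Gsk3a was at 13.6 to 19.9 TPM (the deposited values scaled to depth and transcript length) in the 4 knockout libraries and at 35.6 to 82.4 TPM in the 8 others, and Gsk3b at 7.51 to 10.4 against 12.1 to 28.1 TPM. Both genes were thus lower but still counted there, and since the labels do not name the GSK3 gene or the part of it that was targeted, these gene totals do not show how complete the loss is. All 7 ES cell markers listed, among them Pou5f1 and Nanog, were above 1 CPM on average in every group, with sums from 1393 to 4448 CPM. Of 12 fibroblast markers, 7 were at 0 in both libraries of each 2iL group, at most 1 was at 0 in both libraries of a serum/LIF group, and their sum ran from 1678 to 4430 CPM. Most of that sum was Fn1, the gene of the matrix protein fibronectin, in every library. The 8 primitive endoderm markers summed to 342 to 723.1 CPM in the knockout and 73.56 to 329.5 CPM in unmodified cells.

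In cells given DMSO, the Zscan4 genes were clearly measured in both unmodified settings and were close to the detection limit in the GSK3 knockout. The Zscan4 sum was 22.97 and 11.35 CPM in unmodified serum/LIF, 45.81 and 13.38 CPM in 2iL, and 0.5913 and 0.9937 CPM in the knockout. The first library was the higher one in both unmodified settings, by 2.02 times in serum/LIF and 3.42 times in 2iL, and every unmodified library lay above both knockout libraries. With JQ1 the sum was 0.1303 and 0.1936 CPM in unmodified serum/LIF, 0.1139 and 0.2587 CPM in 2iL, and 0.03434 CPM and 0 in the knockout. No JQ1 library reached the level of any DMSO library, and those 6 libraries held 0 to 6 counts each. By group mean the order was 2iL with DMSO (29.6 CPM ± 22.9, SD, n = 2), serum/LIF with DMSO (17.2 ± 8.22) and knockout with DMSO (0.7925 ± 0.285), followed by 2iL with JQ1 (0.186 ± 0.102), serum/LIF with JQ1 (0.162 ± 0.0448) and knockout with JQ1 (0.0172 ± 0.0243). The ranges of the 2 highest groups overlapped, as did those of 2iL and serum/LIF with JQ1. An order among the 3 JQ1 groups was not detectable at this depth.

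**Figure D1:**
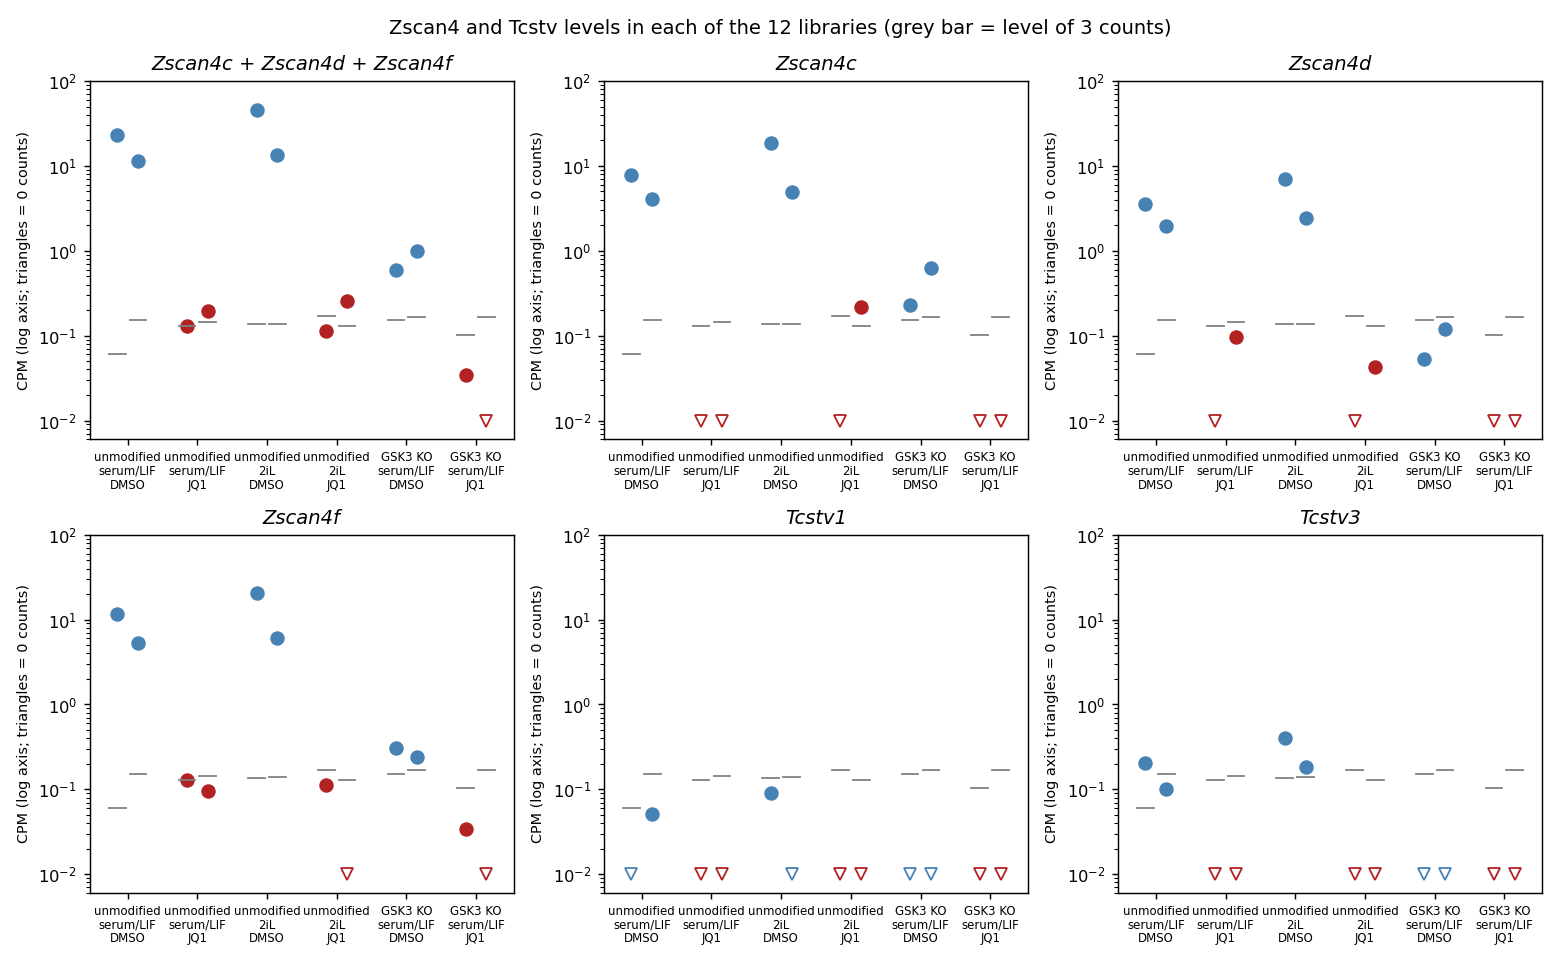
Level of each gene and of the Zscan4 sum in CPM (log axis) in the 12 libraries, 2 points per group, blue for DMSO and red for JQ1. Open triangles are libraries with 0 counts and grey bars mark the level of 3 counts. All 4 unmodified DMSO libraries stand between 11.35 and 45.81 CPM in the Zscan4 sum, and no JQ1 library is above 0.2587 CPM.

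Zscan4c, the copy most used as the marker of this state in ES cells, had 386.73 and 79.90 expected counts in the DMSO libraries of unmodified serum/LIF cells and 403.63 and 106.71 in those of 2iL. It had 4.52 and 11.33 in the knockout with DMSO. With JQ1 it was at 0 in 5 of 6 libraries, the exception being the second 2iL library with 5 counts. Zscan4f had 568.59 and 103.08 expected counts in serum/LIF, 443.09 and 130.98 for 2iL, and the knockout had 6.07 and 4.29, all with DMSO. Its JQ1 libraries held 0 to 3 counts. Zscan4d had lower counts with DMSO, 172.66 and 38.79 in serum/LIF, 151.41 and 52.81 for 2iL, and 1.05 and 2.16 for the knockout. Its JQ1 libraries held 0 to 2 counts. These counts are not scaled to depth. With DMSO the mean levels in serum/LIF and 2iL were 5.98 and 11.7 CPM for Zscan4c and 8.43 and 13.2 CPM for Zscan4f. For Zscan4d they were 2.75 and 4.69 CPM. The ranges of both media overlapped for each copy.

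Per transcript length, Zscan4f was the highest of the 5 genes and Zscan4d the lowest of the Zscan4 copies in unmodified DMSO cells. In serum/LIF the deposited values were 10.2 and 4 TPM for Zscan4f, 4.35 and 2.13 TPM for Zscan4c and 1.95 and 1.04 TPM for Zscan4d. In 2iL they were 19.2 and 6.93 TPM for Zscan4f, 11 and 3.05 TPM for Zscan4c and 4.14 and 1.51 TPM for Zscan4d, so that the order of the copies was the same in each of these 4 libraries. Of the counts of these 3 copies, Zscan4f took 44.4% to 50.4%, Zscan4c 34.3% to 40.4% and Zscan4d 15.2% to 18.2%. The proportions thus differed less between the 4 libraries than the sum itself.

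The cluster's other 6 rows are Zscan4a, which GENCODE lists as an unprocessed pseudogene, Zscan4b, Zscan4e, Zscan4-ps1, Zscan4-ps2 and Zscan4-ps3. Zscan4c, Zscan4d and Zscan4f held 46.3% to 52.8% of the counts of all 9 rows in the 4 unmodified DMSO libraries. Of the 6 other rows Zscan4-ps2 had the highest share in each of these libraries, 12.9% to 19.2%, and in the second serum/LIF library it was above Zscan4c (16.7%). The shares of Zscan4a, 10.3% to 14.1%, and Zscan4e, 7.76% to 11.6%, overlapped. Zscan4b and Zscan4-ps1 stayed at or below 4.36% each. In the knockout with DMSO all 9 rows together held 28 and 31 counts, too few for the shares to be compared. The sum over all 9 rows was 36.4 CPM ± 16.8 in serum/LIF, 57.2 ± 41.9 in 2iL and 1.58 ± 0.22 in the knockout with DMSO (SD, n = 2), and 0.0172 to 0.265 CPM on average in the JQ1 groups.

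**Figure D2:**
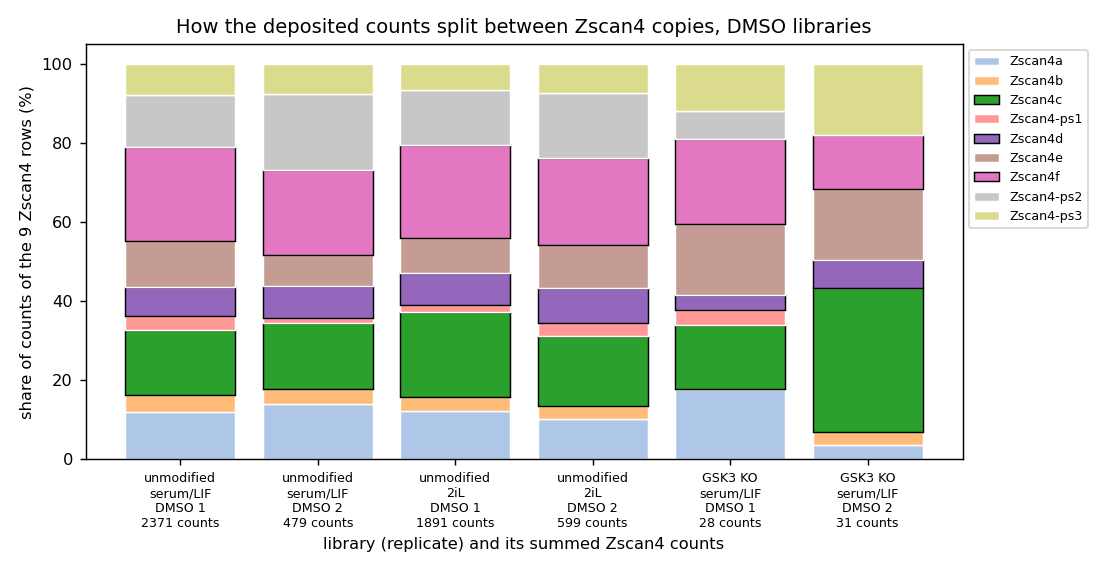
Share of the counts of the 9 Zscan4 rows (percent) given to each copy in the 6 DMSO libraries, with the summed count under each bar and Zscan4c, Zscan4d and Zscan4f outlined in black. The outlined copies take 46.3% to 52.8% in the 4 unmodified libraries, and the bars of the knockout rest on 28 and 31 counts.

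The Tcstv genes were near the limit of detection throughout. Tcstv3 had 10 and 2 expected counts in serum/LIF and 8.75 and 4 in 2iL with DMSO, and 0 in each of the other 8 libraries. Tcstv1 had 1 count in the second serum/LIF DMSO library and 2 in the first 2iL DMSO library, and 0 in the other 10. Every count of either gene thus came from an unmodified DMSO library. Per length, Tcstv3 reached 0.51 and 0.22 TPM in serum/LIF and 0.99 and 0.84 TPM in 2iL. Neither gene, nor their sum, passed the filter on low counts, so 3 of the 5 genes were tested. Those 3 passed it through the unmodified DMSO groups, where they are high.

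Treatment with JQ1 in the unmodified serum/LIF setting asks how the BET inhibitor bears on these genes in the conventional medium. The Zscan4 sum fell from 1350 counts in both DMSO libraries together to 7 with JQ1, a 123-fold lower level at equal depth (95% exact counting interval 59.4 to 306). Such intervals cover counting error only, since reads without molecular identifiers are not independent molecules. Of the pooled DMSO counts 1127.98 came from the deeper first library and 221.77 from the second. Every pooled ratio that uses this group therefore rests mostly on the first. The log2 fold change was -6.71 ± 0.75 (SE), with an adjusted p of 0.000108 (edgeR quasi-likelihood test, Benjamini-Hochberg over all genes). Zscan4f was 85.5-fold lower (36.5 to 264, 672 against 5 counts) and Zscan4d 67.1-fold lower (18.4 to 558, 211 against 2 counts). Zscan4c, with no count after JQ1, was at least 43.4-fold lower when 3 counts per library are taken as the floor. The 3 genes tested passed with adjusted p of 0.0011 for Zscan4c, 0.000292 for Zscan4f and 0.00115 for Zscan4d (edgeR), in a comparison in which 12.8% of 16987 genes were called lower. Tcstv3, with 12 counts against 0, was at least 1.11-fold lower against that floor.

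In 2iL the same comparison gave the same picture. The Zscan4 sum fell from 1289 counts to 8, a 151-fold lower level (76.4 to 350), and its log2 fold change was -7.20 ± 0.73 with an adjusted p of 2.66e-05 (edgeR). Zscan4c was 95.6-fold lower (40.7 to 296), Zscan4f 269-fold lower (74.1 to 2230, 574 against 2 counts) and Zscan4d 191-fold lower (33.9 to 7580, 204 against 1 count). Zscan4c, Zscan4f and Zscan4d passed with adjusted p of 0.000506, 6.44e-05 and 0.00026 (edgeR), where 17.3% of genes were called lower. The Tcstv genes together had 15 counts with DMSO and 0 with JQ1, at least 2.26-fold lower against the floor. Without a filter on low counts, which brings in 30185 genes, the Tcstv sum had an adjusted p of 0.0305 in 2iL and 0.111 in serum/LIF (edgeR).

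In the GSK3 knockout, JQ1 was added to cells whose level was already low. The Zscan4 sum had 29 counts with DMSO and 1 with JQ1, a ratio of 36.3 (6.02 to 1480), and its log2 fold change of -4.93 ± 1.55 passed with an adjusted p of 0.0271 (edgeR). The call was lost when any 1 of the 4 knockout libraries was left out. The adjusted p was 0.0506 without the first DMSO library, 0.103 without the second, 0.113 without the first JQ1 library and 0.103 without the second (edgeR). Of the 3 genes tested, 0 passed, where 19.5% of genes were called lower. Their adjusted p was 0.0622 for Zscan4c (16 counts against 0), 0.157 for Zscan4f (10 against 1) and 0.214 for Zscan4d (3 against 0). Zscan4c alone had an unadjusted p under 0.05 with edgeR, and DESeq2 called it with an adjusted p of 0.0146. Zscan4c was also called by edgeR without the first or the second 2iL DMSO library (adjusted p = 0.0178 and 0.0183), and without the filter on low counts both Zscan4c (7.65e-06) and Zscan4f (0.0084) were. Whether single copies fell with JQ1 in the knockout thus depended on the settings of the test. The Tcstv genes had no count in any knockout library.

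The fall of the Zscan4 sum with JQ1 was not shown to differ between settings. The response in 2iL minus that in serum/LIF was -0.49 ± 1.56 on the log2 scale (adjusted p = 0.92, edgeR), and it was 0.65 without the first 2iL DMSO library. The response in the knockout minus that in unmodified serum/LIF cells was 1.79 ± 3.97 (adjusted p = 0.831, edgeR), and -0.50 without the first knockout JQ1 library. Both differences use the unmodified serum/LIF libraries. Their errors are derived from the test statistic and are only rough where a group is at or near 0. The few counts with JQ1 leave room for large differences in either direction. In these 2 contrasts 4.16% and 4.37% of all genes passed. Summed fibroblast markers also moved with JQ1. They went from 3700 to 4026 CPM down to 1873 to 2732 in unmodified serum/LIF. There 9 of the 10 tested markers were lower and 0 higher, and 12.8% of all genes were called lower. In the knockout the sums went from 2970 to 3147 down to 1922 to 2182. There 8 of the 10 were lower and 0 higher, and 19.5% of all genes were called lower. Fn1 made up most of each sum, at 2878 and 2665 CPM with DMSO and 2038 and 1322 with JQ1 in unmodified serum/LIF. In the knockout it was at 2841 and 2480 against 1965 and 1756 CPM. Since Fn1 was also high in 2iL, the sums are a poor measure of fibroblasts. In 2iL 7 of the 12 markers were at 0, and 11 of the 12 were under 1 CPM on average with either DMSO or JQ1. The marker sum there was almost wholly Fn1, which rose with JQ1 from 1676 and 2156 to 4430 and 3666 CPM. The rise was 1.08 ± 0.18 on the log2 scale (adjusted p = 0.00109, edgeR). The other 2 called markers fell in 2iL, Col1a1 from 0.872 and 0.599 CPM to 0.171 CPM and 0, and Thy1 from 1.15 and 0.645 CPM to 0.0569 CPM and 0. Of the 10 tested markers 1 was thus called higher and 2 lower in 2iL, where 11.2% and 17.3% of all genes were. Any link of these marker changes to the Zscan4 fall was not tested.

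The comparison of media with DMSO asks whether the 2iL ground state changes the 2-cell-like signal. The Zscan4 sum had 1.51 times the level in 2iL (counting interval 1.39 to 1.63), but the libraries of both media overlapped. Its log2 fold change of 0.77 ± 0.44 did not pass (adjusted p = 0.155, edgeR), and 0 of the 3 genes tested passed in a comparison in which 54.8% of genes did. Their adjusted p was 0.175 for Zscan4c, 0.286 for Zscan4f and 0.239 for Zscan4d, and 0 of the 3 had an unadjusted p under 0.05 (edgeR) or was called by DESeq2. The value rested on single libraries. It was -0.42 without the first 2iL DMSO library and 1.35, with an adjusted p of 0.0045 (edgeR), without the second, where all 3 genes tested passed. Without the filter on low counts the log2 fold change was 0.76, with an adjusted p of 0.00156 (edgeR), and Zscan4c passed with 0.00357.

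The GSK3 knockout with DMSO was compared with unmodified cells in the same medium, so that genotype differed without a change of medium. The Zscan4 sum was 25.5-fold lower in the knockout (17.7 to 38.2), with a log2 fold change of -4.43 ± 0.60 and an adjusted p of 8.49e-05 (edgeR). Zscan4c was 16-fold lower (9.74 to 28.2), Zscan4f 36.8-fold lower (19.9 to 77.1) and Zscan4d 38.5-fold lower (13 to 188, 211 against 3 counts). These 3 genes passed with adjusted p of 0.00245, 0.000136 and 0.000559 (edgeR), where 21.0% of genes were called lower. Tcstv counts were 13 in unmodified cells and 0 in the knockout, at least 1.12-fold lower against the floor. 2iL contains an inhibitor of GSK3, and the cells labelled GSK3 knockout in serum/LIF were 38.4-fold below unmodified 2iL cells (26.6 to 57.6). There the log2 fold change of the Zscan4 sum was -5.20 ± 0.60 (adjusted p = 2.34e-05, edgeR), and the 3 genes tested passed where 22.0% of genes were called lower. Genotype, medium and MEK inhibition differ together in that pair and cannot be told apart. These 2 comparisons share the knockout DMSO libraries. The summed primitive endoderm markers were at 507 and 723.1 CPM in the knockout with DMSO, against 254.8 to 276.9 in unmodified serum/LIF and 73.56 to 111.2 in 2iL. Fibroblast markers differed too. Of the 10 tested, 8 were lower and 0 higher in the knockout than in unmodified serum/LIF, where 21.0% of all genes were lower. Col1a1 was at 138.8 and 238.6 CPM in the knockout, against 518.1 and 481.8 CPM in unmodified serum/LIF. Against 2iL 9 of the 10 were higher and 0 lower. The part of these marker changes in the Zscan4 differences was not tested.

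**Figure D3:**
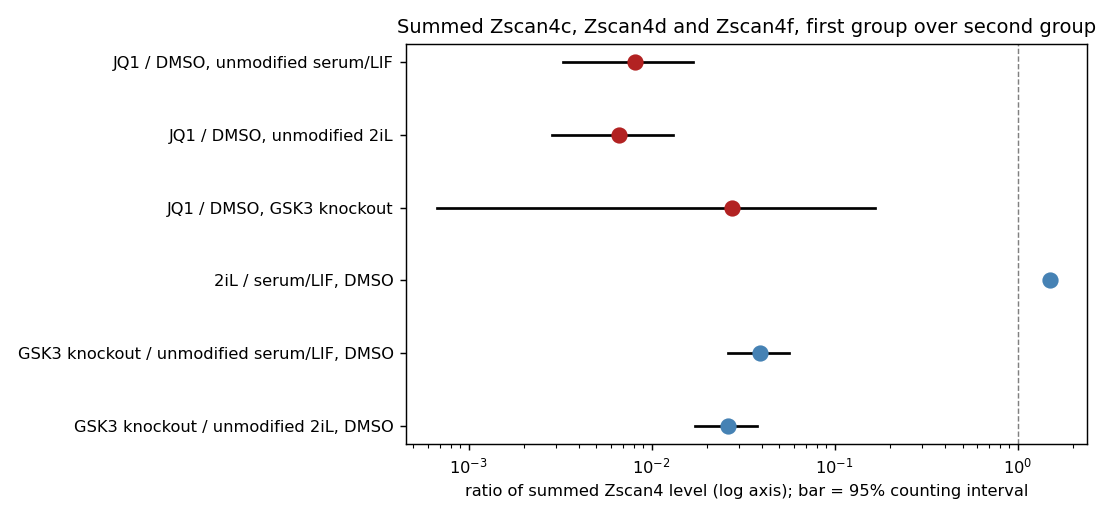
Ratio of the Zscan4 sum between the first and the second group named at each line (log axis), from pooled counts scaled to depth, with 95% exact counting intervals as bars and a dashed line at equal levels. JQ1 ratios (red) and knockout ratios (blue) lie below 1, from 151-fold to 25.5-fold lower, and the ratio of 2iL to serum/LIF is 1.51. The bars hold no spread between libraries.

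The cluster's other rows moved with Zscan4c, Zscan4d and Zscan4f. All 6 fell with JQ1 in both unmodified settings, where 12.8% (serum/LIF) and 17.3% (2iL) of all genes were called lower. All 6 were also lower in the knockout than in either unmodified DMSO group. Of all genes, 21.0% were called lower there against serum/LIF and 22.0% against 2iL. In serum/LIF with JQ1 the adjusted p of these 6 rows ran from 0.000241 for Zscan4-ps2 to 0.0124 for Zscan4-ps1 (edgeR). For JQ1 in the knockout their adjusted p ran from 0.0571 to 0.506, and for 2iL against serum/LIF from 0.27 to 0.806 (edgeR). Since reads may be shared between copies, these rows are not independent of the 3 members, and all 6 reached the level the filter asks for in 2 libraries only with the help of the unmodified DMSO libraries.

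Other 2-cell-like genes, 41 in the list used, had 40 rows in the tables, of which 19 passed the filter. Of these 19, 16 reached the level it asks for (0.49 CPM in 2 libraries) only with the help of the unmodified DMSO libraries, so the filter favoured genes high there, and the counts and medians that follow describe the list and support nothing. With JQ1 15 of 19 fell in unmodified serum/LIF, where 12.8% of all genes did, and 18 of 19 in 2iL, where 17.3% did, and 0 rose. Their median log2 fold changes were -6.58 and -6.54, or -2.83 and -4.01 with genes that had no count in a group set at their bound, beside -0.02 and -0.06 over all genes. In the knockout 1 of 19 fell with JQ1 and 0 rose, a share below the 19.5% of all genes called lower. The number lower was 2 with DESeq2 or without either 2iL DMSO library, and 3 without the filter. Most listed genes were already near 0 in the knockout with DMSO, and Usp17la and Gm8300 had no count there. A further fall of such genes could hardly be seen, so the low share does not show that JQ1 left them unchanged. Between DMSO groups 15 of 19 were lower and 1 higher in the knockout than in unmodified serum/LIF, where 21.0% and 18.9% of all genes were, with a median of -3.70. The 15 became 5 without the first unmodified serum/LIF DMSO library and 5 without the first knockout DMSO library. In 2iL 7 of 19 were higher than in serum/LIF, where 28.3% of all genes were, and 0 lower, with a median of 0.96 beside 0.04 over all genes. The listed genes with the highest mean levels were Ddit4l, Patl2, Gm4340, Gm5662, Gm8994 and Gm4027.

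Gm4340 resembled the Zscan4 genes, with 10.5 and 3.54 CPM in serum/LIF and 9.92 and 3.17 CPM in 2iL with DMSO, and 0 in 7 of the other 8 libraries. Gm5662, Gm8994 and Gm4027 had 1.19 to 10.7 CPM in the 4 unmodified DMSO libraries and at most 0.335 CPM in the other 8. The 2 most abundant genes of the list did not share that pattern. Ddit4l, a relative of the mTORC1 inhibitor Ddit4, was at 10.6 and 9.72 CPM in serum/LIF and 12.7 and 11.6 CPM in 2iL with DMSO. With JQ1 it was at 3.87 and 3.68 CPM and at 2.39 and 2.03 CPM in these media, so that it fell without approaching 0. The log2 fold changes were -1.43 ± 0.20 (adjusted p = 0.000445) and -2.46 ± 0.21 (adjusted p = 9.01e-06, edgeR). In the knockout Ddit4l was at 5.03 and 3.80 CPM with DMSO and 4.09 and 3.79 CPM with JQ1, a log2 fold change of -0.16 ± 0.21 (adjusted p = 0.568, edgeR).

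Patl2, which encodes an RNA-binding protein of oocytes, went against the Zscan4 genes in the knockout. It was at 5.69 and 5.37 CPM there with DMSO, at 1.24 and 2.56 CPM in unmodified serum/LIF and at 4.27 and 4.93 CPM in 2iL. The knockout was above unmodified serum/LIF by 1.60 ± 0.36 on the log2 scale (adjusted p = 0.00331, edgeR), and by 1.11 with an adjusted p of 0.0525 (edgeR) without the first unmodified serum/LIF DMSO library. With JQ1 Patl2 fell in all 3 settings. Its log2 fold changes were -2.96 ± 0.50 in serum/LIF, -1.89 ± 0.38 in 2iL and -2.89 ± 0.40 in the knockout (adjusted p = 0.00162, 0.00305 and 0.000214, edgeR). By edgeR with all libraries Patl2 was the 1 listed gene that was higher in the knockout with DMSO, and the 1 that fell there with JQ1.

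**Figure D4:**
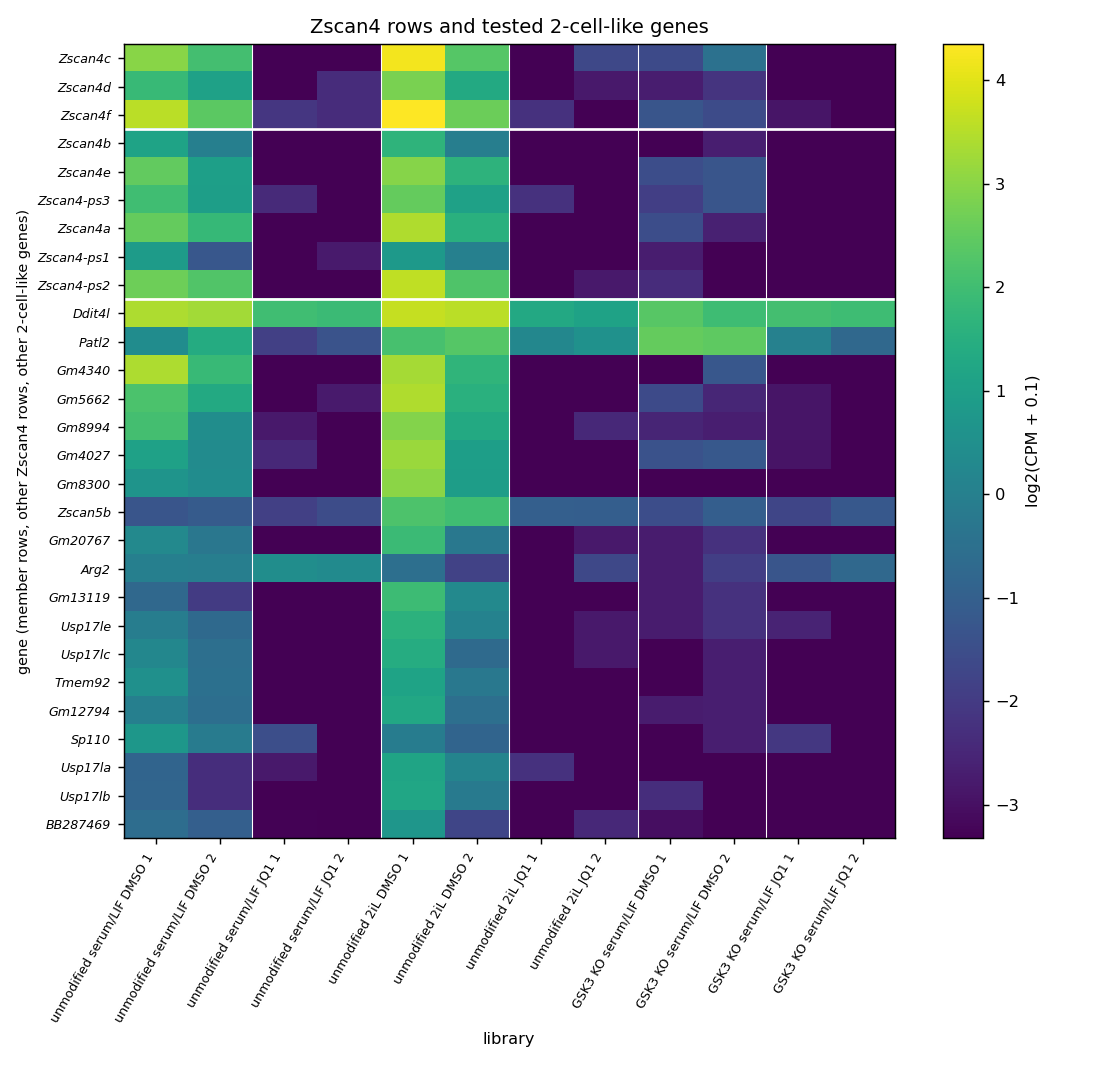
Level in each library, as log2(CPM + 0.1), of Zscan4c, Zscan4d and Zscan4f, the other 6 Zscan4 rows and the 19 tested genes of the 2-cell-like list, ordered by mean level. The Zscan4 rows and most listed genes are bright in the 4 unmodified DMSO libraries and dark elsewhere, whereas Ddit4l stays at 2.03 CPM or more in all and Patl2 is brightest in the knockout with DMSO.

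Genes known to activate the 2-cell-like programme showed other patterns over the groups. Duxf3, the Dux transcription factor that opens the programme, ran from 0 to 0.366 CPM over the 12 libraries and was not tested. Tbx3, a T-box factor of naive ES cells reported to promote Zscan4 expression, was at 20.0 and 20.5 CPM in unmodified serum/LIF, 224.3 and 197.3 CPM in 2iL and 315.4 and 303.3 CPM in the knockout, all with DMSO. It was thus highest among the DMSO groups in the group where the Zscan4 genes were lowest. Against unmodified serum/LIF, Tbx3 was higher by 3.94 ± 0.13 on the log2 scale in the knockout (adjusted p = 1.59e-09) and by 3.38 ± 0.12 in 2iL (adjusted p = 9.85e-10, edgeR). With JQ1 in 2iL Tbx3 rose to 358.3 and 309 CPM, by 0.66 ± 0.11 (adjusted p = 0.000941, edgeR), while the Zscan4 genes fell.

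Dppa2 and Dppa4, partner proteins that act upstream of Dux, moved apart between media. Dppa2 was at 39.4 and 52.2 CPM in serum/LIF and 139.3 and 85.4 CPM in 2iL with DMSO, where the first library of 2iL was high as for the Zscan4 genes. It was higher in 2iL by 1.30 ± 0.23 on the log2 scale (adjusted p = 0.000352, edgeR). With JQ1 in 2iL Dppa2 was at 68.7 and 72.0 CPM and fell, as the Zscan4 genes did, by 0.68 (log2 fold change -0.68 ± 0.23, adjusted p = 0.0406, edgeR). That fall was -0.27 (adjusted p = 0.431) without the first 2iL DMSO library and did not pass without either 2iL JQ1 library (0.174 and 0.135) or either knockout JQ1 library (0.0516 and 0.0517, edgeR). Dppa4 was at 69.1 and 75.0 CPM in serum/LIF and 49.6 and 37.8 CPM in 2iL, lower by 0.72 in 2iL (log2 fold change -0.72 ± 0.15, adjusted p = 0.00134, edgeR). In the knockout with DMSO neither passed against unmodified serum/LIF (adjusted p = 0.264 for Dppa2 and 0.117 for Dppa4, edgeR). Nelfa, a subunit of the negative elongation factor that also drives the 2-cell-like state, ran from 48.4 to 75.3 CPM over all libraries. With JQ1 it rose in the knockout by 0.41 ± 0.11 (adjusted p = 0.0131, edgeR), a call lost without some single libraries (0.38 to 0.45). It did not pass with JQ1 in unmodified serum/LIF or 2iL. With DMSO the knockout was below 2iL (log2 fold change -0.47 ± 0.11, adjusted p = 0.00425, edgeR).

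**Figure D5:**
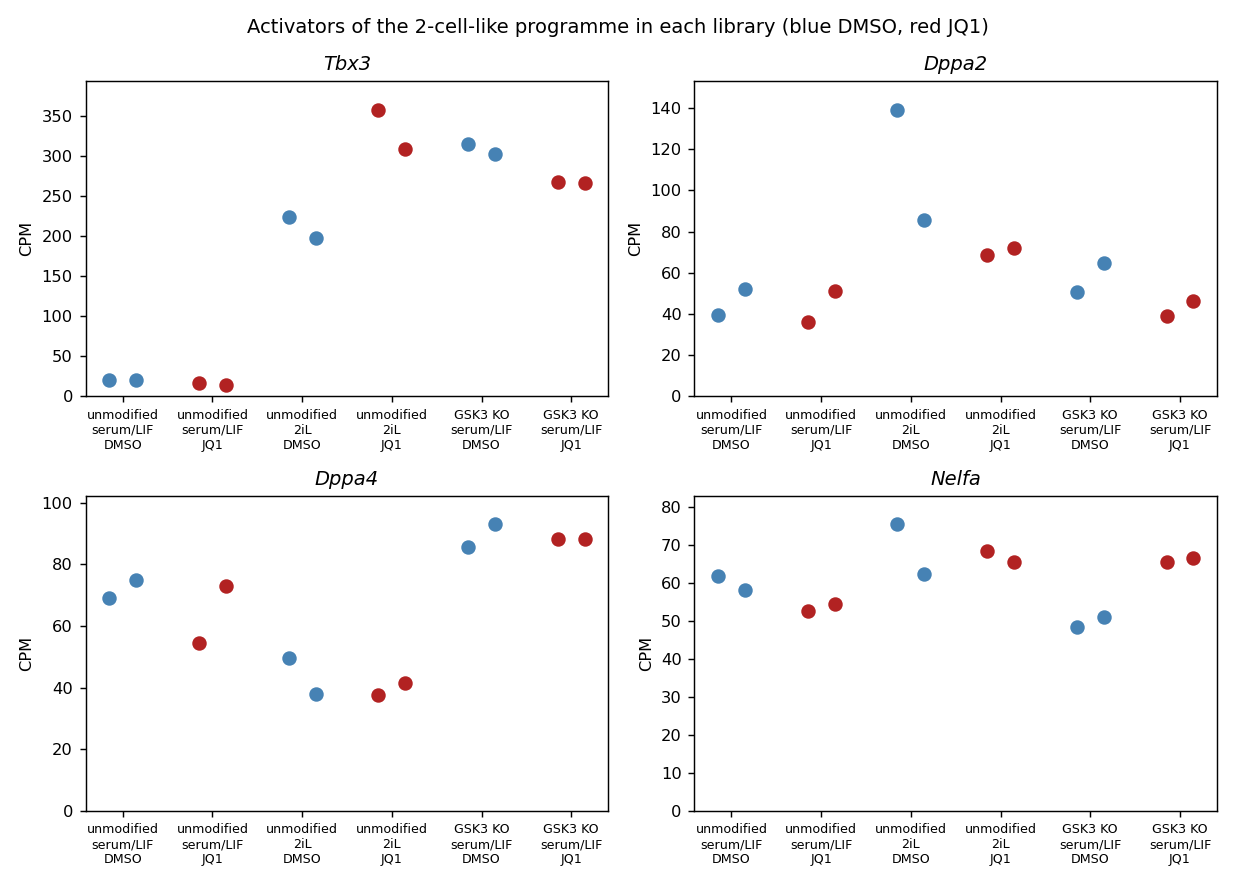
CPM of Tbx3, Dppa2, Dppa4 and Nelfa in each library, blue for DMSO and red for JQ1, on linear axes from 0. Tbx3 stands at 13.5 to 20.5 CPM in unmodified serum/LIF and at 197.3 CPM or more in the other 4 groups, and none of these genes drops to near 0 with JQ1.

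All 18 listed repressors of the 2-cell-like programme were tested. With JQ1 3 were higher and 0 lower in unmodified serum/LIF, 5 higher and 0 lower in 2iL, and 2 higher and 3 lower in the knockout, where 8.54%, 11.2% and 14.6% of all genes were called higher and 12.8%, 17.3% and 19.5% lower. Their median log2 fold changes were 0.21, 0.16 and 0.10, beside -0.02, -0.06 and -0.06 over all genes. Between knockout and unmodified serum/LIF with DMSO 4 were higher, against 18.9% of all genes, and 2 lower, against 21.0%. Among these Mga, a subunit of a noncanonical Polycomb complex that silences germ cell genes, was at 288.7 and 218.1 CPM in the knockout and 113.5 and 138.6 CPM in unmodified cells. That is a log2 fold change of 1.01 ± 0.24 (adjusted p = 0.00424, edgeR). Rif1, a telomere and replication timing protein that represses Zscan4, ran from 387.6 to 618.4 CPM over the 12 libraries. With JQ1 its log2 fold change was 0.36 ± 0.12 in 2iL (adjusted p = 0.0375) and -0.45 ± 0.12 in the knockout (adjusted p = 0.0121, edgeR). Both calls were lost without some single libraries (0.26 to 0.49 and -0.53 to -0.35). In unmodified serum/LIF Rif1 did not pass. The other most abundant repressors were Ncl at 1994 to 2675 CPM, Trim28 at 1391 to 1906, Kdm1a at 187.5 to 288.9 and Hdac1 at 140.6 to 197.5, each varying less than 2-fold. Others of the list varied more, Lin28a the most.

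The telomere and recombination list held 10 genes, all tested. With JQ1 3 were higher and 2 lower in unmodified serum/LIF, 2 higher and 3 lower in 2iL, and 3 higher and 1 lower in the knockout. The shares of all genes called higher were 8.54%, 11.2% and 14.6%, and those called lower 12.8%, 17.3% and 19.5%, so that the 1 of 10 lower in the knockout was below the background. Acd, which encodes the shelterin protein that recruits telomerase, was at 18.8 and 16.3 CPM with DMSO and 25.1 and 32.1 CPM with JQ1 in serum/LIF. It was at 25.8 and 20.9 against 41.3 and 41.3 CPM in 2iL, and at 17.1 and 20.1 against 45.3 and 39.9 CPM in the knockout. In each setting both JQ1 libraries were above both DMSO libraries. Acd rose by 0.70 ± 0.16, 0.82 ± 0.16 and 1.20 ± 0.16 on the log2 scale (adjusted p = 0.00798, 0.00214 and 0.000159, edgeR). The call in serum/LIF was lost without the second DMSO library (0.61, adjusted p = 0.0641) or the second JQ1 library (0.53, adjusted p = 0.0528, edgeR). Terf2ip of the same list was also called higher in serum/LIF, 2iL and the knockout, by 0.60 ± 0.16, 0.52 ± 0.15 and 0.66 ± 0.15 (adjusted p = 0.0162, 0.0216 and 0.00612, edgeR). Its calls in serum/LIF and 2iL were lost without some single libraries. Tert was called lower in 2iL (log2 fold change -1.07 ± 0.19, adjusted p = 0.00162, edgeR) and did not pass in the other settings. Terf1, the most abundant shelterin gene of the list, ran from 109.0 to 164.2 CPM and did not pass with JQ1 in any setting.

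Smc1b, a cohesin subunit of meiotic cells that was singled out from the list for its values, moved the other way from Acd. It was at 2.34 and 3.79 CPM in serum/LIF, 16.0 and 18.5 CPM in 2iL and 1.02 and 1.23 CPM in the knockout with DMSO. With JQ1 it was at 0.782 and 1.31, 2.79 and 4.05, and 0.206 and 0.39 CPM. The log2 fold changes were -1.52 ± 0.35, -2.32 ± 0.30 and -1.98 ± 0.49 (adjusted p = 0.0093, 0.000156 and 0.00865, edgeR). The call in serum/LIF was lost without the second DMSO library (adjusted p = 0.0619) or the first JQ1 library (0.0772), and that in the knockout without the first JQ1 library (0.103, edgeR). Its order over the DMSO groups, 2iL above serum/LIF above the knockout, was that of the Zscan4 means. Since Smc1b was chosen for its values, this likeness supports nothing. Between media Smc1b was higher in 2iL by 2.53 ± 0.30 (adjusted p = 1.24e-05), whereas the Zscan4 sum did not pass (adjusted p = 0.155, edgeR).

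Among the 16978 other genes compared, the 10 most like the Zscan4 sum over the 12 libraries by Pearson correlation (log2 CPM with a prior count of 2) were all predicted genes. They were Gm2016 (r = 0.987), Gm21293, Gm21304, Gm21312, Gm20765, Gm20767, Gm16478, Gm12794, Gm5039 and Gm5662 (r = 0.971). Gm2016 was at 3.54 CPM on average in serum/LIF and 8.90 CPM in 2iL with DMSO, 0.299 CPM in the knockout with DMSO, 0.0647 CPM in 2iL with JQ1 and 0 in the 2 other JQ1 groups. The highest level any of the 10 reached in a library was 14.4 CPM. Gm21312 and Gm20765 had the same mean level in every group, and Gm21293 and Gm21304 in every group but the unmodified DMSO ones. The 10 genes may therefore not be 10 separate signals. Gm5662, Gm20767 and Gm12794 belong to the 2-cell-like list above. The correlation describes these libraries, which share groups and depth, and by Spearman rank correlation 2 of the 10 genes were retained.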

How the data were processed

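RNA of 12 ES cell libraries was deposited as 1 table per library. The authors estimated expected counts and TPM per gene with RSEM after STAR 2.5.2 alignment to mm10, per the file headers and the submitters' processing notes, which also name bcl2fastq and DESeq2 1.18.1. The annotation release and strand setting are not given in the sources used here. Deposited TPM were used only to compare genes by length and for Gsk3a and Gsk3b. Names and coordinates came from GENCODE mouse release M 21, which matched 52403 of 52550 identifiers without version. Expected counts were rounded and tested with edgeR 4.0.16 in R 4.3.3: filterByExpr (minimum count 10, total 15; 16987 genes kept), TMM, 1 quasi-likelihood fit of 6 groups with 6 residual degrees of freedom, with a two-sided threshold of 0.05 after Benjamini-Hochberg adjustment. SEs are the size of the log2 fold change over the square root of F, which is only rough where a group is at or near 0. Summed rows were tested in the same table with the rows replaced by their sum (16985 genes). The test was tried on simulated data. Depth ran from 17869865 to 48723436 counts per library.

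The members, gene lists and tests were chosen with earlier results of these data known. The text names the members, the other Zscan4 rows, up to 6 genes of each list by mean CPM, Duxf3, Dppa2, Dppa4, Nelfa, Tbx3 and Rif1, and the 10 genes most like the Zscan4 sum. Smc1b, Tert, Lin28a, Usp17la, Gm8300 and the markers Nanog, Fn1, Col1a1 and Thy1 were added after seeing their values. Lists were other 2-cell-like genes, activators, repressors, telomere and recombination genes, and markers of ES cells, fibroblasts and primitive endoderm. Alternatives were DESeq2 1.42.0, RLE scaling, no filter, at least 1 CPM in 2 libraries, a replicate block, fits of only the compared libraries, all 9 Zscan4 rows summed, Spearman correlation and each library left out in turn.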

Additional observations from a re-analysis of the deposited data

Results flagged for a closer look

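The JQ1 response of 5 genes given with values here differed between settings by the test of the difference itself. Nanog, Fn1 and Thy1 were added after their values were seen, so the number of genes follows from the choice. Some listed genes not given with values passed as well, such as Lin28a in the knockout. Over all genes 4.16% passed for the difference in 2iL and 4.37% for that in the knockout. Tbx3 fell with JQ1 in unmodified serum/LIF (log2 fold change -0.46 ± 0.12, adjusted p = 0.0188, edgeR) and rose in 2iL, a difference of 1.12 ± 0.16 (adjusted p = 0.00268, edgeR quasi-likelihood test). Its fall in serum/LIF did not pass without the first or second DMSO library (adjusted p = 0.0668 and 0.0788) or without the second JQ1 library (0.132, edgeR), whereas the difference passed without each library in turn (adjusted p up to 0.0174). Ddit4l fell with JQ1 in unmodified serum/LIF and did not pass in the knockout, a difference of 1.26 ± 0.29 (adjusted p = 0.0274, edgeR). This difference did not pass when any of 7 libraries was left out (adjusted p of 0.0504 to 0.118): all those of its 4 groups except the second unmodified JQ1 library. Nanog, a core pluripotency factor, fell with JQ1 in unmodified serum/LIF from 140.1 and 174.2 to 44.3 and 59.6 CPM (log2 fold change -1.60 ± 0.15, adjusted p = 3.27e-05, edgeR). Its response was higher by 1.83 ± 0.20 in 2iL (adjusted p = 0.000654) and by 1.58 ± 0.20 in the knockout (adjusted p = 0.00149, edgeR), and both differences passed under every alternative run. The fibronectin gene Fn1 fell in serum/LIF and rose in 2iL, a difference of 1.80 ± 0.26 (adjusted p = 0.00248, edgeR). Thy1, a fibroblast marker at 1.15 CPM or less in every 2iL library, had a difference of -3.88 ± 0.96 (adjusted p = 0.0393, edgeR), which did not pass with DESeq2 (adjusted p = 0.0663) or without any of 8 libraries in turn (0.052 to 0.262). The Zscan4 sum was not shown to differ in this way.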

How the results depend on the processing

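The fall of the Zscan4 sum with JQ1 in unmodified serum/LIF and 2iL and its lower level in the knockout kept direction and call under every alternative run, including all 9 Zscan4 rows summed. Of 1698 values under alternatives, 1558 kept direction and call, 78 lost the call, 13 gained it, 42 moved and 7 changed direction, and 3 gave no value (Zscan4c, Zscan4d and Zscan4f in the fit of only the 4 knockout libraries, whose filter removed them). Without the first 2iL DMSO library, 2iL against serum/LIF turned to -0.42 for the Zscan4 sum, -0.35 for Zscan4c, -0.55 for Zscan4f and -0.25 for Zscan4d, and the difference of JQ1 responses in 2iL to 0.65. Without the first knockout JQ1 library the difference in the knockout turned to -0.50, and without the first knockout DMSO library Ddit4l with JQ1 there turned to 0.059 (range over left-out libraries -0.34 to 0.059). Leaving out 1 library at a time, the Zscan4 sum ranged from -7.21 to -4.34 for JQ1 in the knockout, from -0.42 to 1.38 for 2iL against serum/LIF (-0.35 to 1.56 for Zscan4c, -0.55 to 1.32 for Zscan4f and -0.25 to 1.25 for Zscan4d), from -1.25 to 0.65 for the difference in 2iL and from -0.50 to 2.36 for that in the knockout. Genes passing ranged from 1927 to 4044 for JQ1 in serum/LIF (main 3623), 2530 to 5330 in 2iL (4834), 3186 to 6304 in the knockout (5799), 4512 to 7152 for knockout against unmodified cells (6790), and 330 to 784 and 212 to 1779 for the differences in 2iL (706) and the knockout (742). Only the libraries compared gave 2245 for JQ1 in serum/LIF and 431 for the difference in 2iL. No filter gave 1478 and 2011 for the 2 differences and 0.76 for the Zscan4 sum in 2iL against serum/LIF, which then passed; DESeq2 gave 1350 for the difference in the knockout. Spearman correlation retained 2 of 10 genes. The cause of these shifts was not tested. The labels tie no replicate number to a batch or a culture, so it is not known whether anything pairs same-numbered libraries. The correlations of their deviations were 0.185, 0.118 and 0.117 between JQ1 and DMSO in serum/LIF, 2iL and the knockout, 0.146 between media, 0.0676 between knockout and unmodified cells and -0.163 between knockout and 2iL, with 2 libraries per group. With the replicate number as a block, the Zscan4 sum changed by -6.71, -7.00 and -5.09 with JQ1 in serum/LIF, 2iL and the knockout, and 2 of 3 members, Zscan4c (adjusted p = 0.0363) and Zscan4f (0.0167, edgeR), passed in the knockout where 0 passed without the block. With the block 2 listed 2-cell-like genes fell there. Counts of 0 to 6 per JQ1 library limit the JQ1 folds, and 29 counts in the knockout DMSO libraries those against the knockout.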
